A study of Mus musculus with 16 samples.

Results

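Cytochrome P450 genes of families 1 to 3 were examined in the liver, as the 48 genes whose symbol has the form Cyp1, Cyp2 or Cyp3 followed by a subfamily letter and a number and which had a probe well above background on at least 8 of 16 arrays. They are 48 of the 54 genes of these families with a probe matched by accession, of 60 in the mouse RefSeq gene table, and belong to 25794 features tested in all, 15251 of them with a RefSeq symbol. Of the other 6 genes with a probe, Cyp2b9, Cyp2b13 and Cyp2t4 were not well above background on any array, Cyp2c65 and Cyp2w1 were so on 1 array each and Cyp2c66 on 2. Cyp2a5, Cyp2c40, Cyp2c69, Cyp2j7, Cyp2j12 and Cyp3a41a had no matched probe.

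The livers came from 16 male ApoE KO mice of a stated age of 8 weeks that received a high-fat diet and were sampled after 8 weeks. In the miR-185-inh group (n = 8) a lentivirus delivered an antisense inhibitor of the microRNA miR-185, and the other group (n = 8) received ctrl-inh, the control inhibitor. Both groups lack apolipoprotein E and ate the same diet, so cholesterol-rich lipoproteins accumulate in the controls as well, and the series asks about bile acid metabolism. All miR-185-inh arrays lay on one slide with its own scan and all ctrl-inh arrays on another, so that treatment cannot be told apart from slide or from scan in the comparisons below. The labels number the samples without saying that they are separate animals, so a p-value here reflects only how much these samples vary, which may be technical variation, and each sample is called a mouse.

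Cytochrome P450 enzymes are heme proteins of the endoplasmic reticulum that insert an oxygen atom into their substrates, with electrons passed on from NADPH by the reductase Por and by cytochrome b5. Families 1 to 3 handle most drugs and other foreign compounds in hepatocytes and also hydroxylate steroids, fatty acids, vitamin D and bile acids. Many are switched on through receptors that sense such compounds, among them the aryl hydrocarbon receptor, CAR (Nr1i3) and PXR (Nr1i2), and in rodents several differ between the sexes.

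Each array held 59305 non-control spots, with 58.7% to 74.8% of them well above background and a median spot signal of 182 to 268, and the number of arrays limits the precision. All 10 hepatocyte markers passed the filter. In bulk liver, fewer cells of a type and less RNA per cell cannot be told apart. Values are log2 units relative to the 75th percentile of the array, so that 0 is the brightness of the spot at that rank, and a difference of 1 is a doubling. They compare mice for 1 gene and do not rank genes against each other. The P450 genes include many close paralogues, whose probes may bind one another's transcripts, and this was not tested.

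Among the 48 genes, 1 passed the adjusted threshold of 0.05 in limma over all features, and it was higher in miR-185-inh livers: Cyp2a22. No gene of the families was called lower. Of all features, 4.74% were called, 320 higher and 902 lower. After normexp background correction that split was 548 higher and 601 lower, and after quantile normalization 396 higher and 458 lower. At an unadjusted p under 0.05, 4 of the 48 genes passed, with Cyp2a22 and Cyp1a1 higher and Cyp2d40 and Cyp2j11 lower, against 20.2% of all features. No gene of the 48 had groups that did not overlap, a separation seen for 0.861% of features.

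The differences of the P450 genes were small and the intervals mostly narrow. The median difference, miR-185-inh minus ctrl-inh, was 0.040 over the 48 genes and -0.033 over all features. Over the 48 genes it ran from 0.013 (without miR-185-inh mouse 6) to 0.071 (without miR-185-inh mouse 12) when 1 mouse was left out, and was 0.0023 after normexp correction and -0.022 in the mice whose numbers both groups share. Of the 48 genes, 19 lay below 0, against 58% of features, and this count was 24 after normexp correction and 15 after quantile normalization. The 95% interval stayed within a 1.5-fold change either way for 42 of the 48 genes, as it did for 82.1% of features, and within 1.2-fold for 22 genes, against 30% of features. The 6 genes whose interval reached beyond 1.5-fold were Cyp1a1, Cyp1b1, Cyp2a22, Cyp2b10, Cyp2g1 and Cyp3a44. The mice of a group varied by a median SD of 0.17 (miR-185-inh) and 0.15 (ctrl-inh) per P450 gene, against 0.21 and 0.19 over all features.

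**Figure D1:**
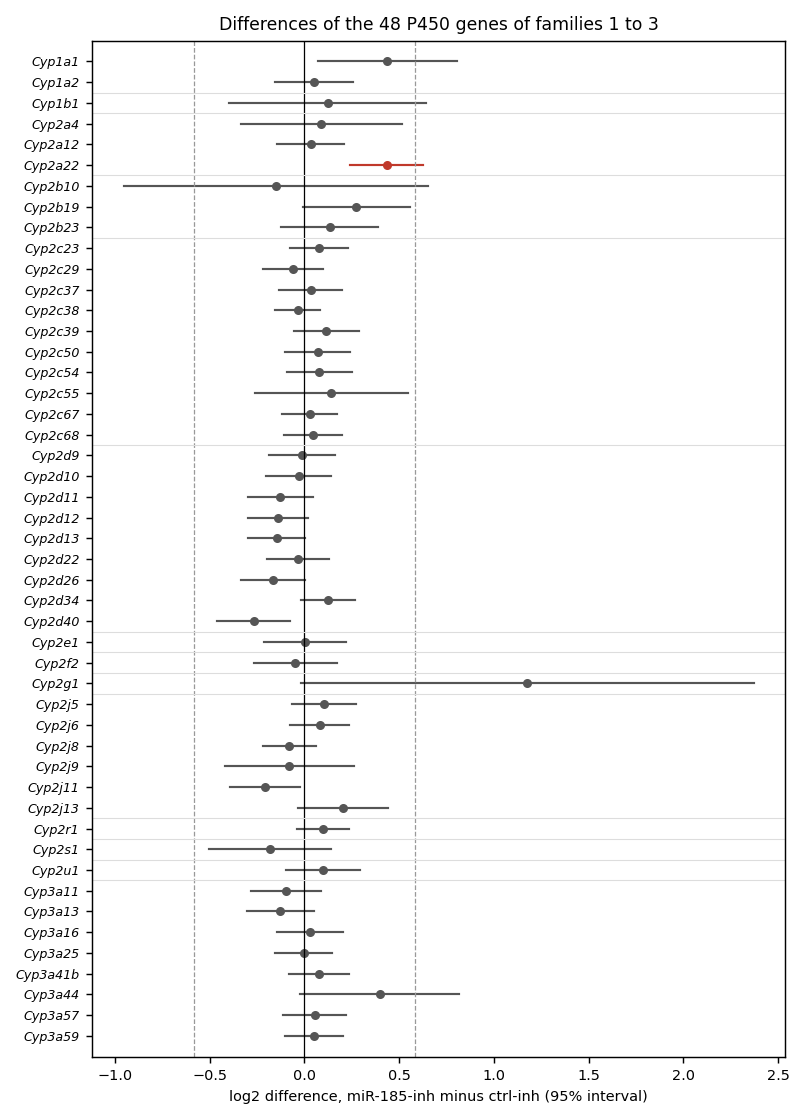
Log2 difference of each of the 48 P450 genes, miR-185-inh minus ctrl-inh (x axis), by gene (y axis, grouped by subfamily), with points for the difference of the means (n = 8 each) and bars for limma's 95% interval. The red point is Cyp2a22 at 0.43, the 1 gene called, and the dashed lines mark 1.5-fold; 42 of the intervals lie between them.

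Cyp2a22 belongs to the Cyp2a subfamily, whose mouse members hydroxylate testosterone and coumarin. Its values in miR-185-inh livers had a lowest of -2.52, a median of -2.33 and a highest of -1.90, against -2.92, -2.71 and -2.51 in ctrl-inh livers. The lowest miR-185-inh mouse was just under the highest ctrl-inh mouse, and each of the 8 miR-185-inh mice exceeded the mean of the ctrl-inh mice. The means were -2.28 ± 0.21 in miR-185-inh livers and -2.71 ± 0.15 in ctrl-inh livers (SD, n = 8 each), a difference of 0.43 (SE 0.091, 95% interval 0.24 to 0.63) or 1.35-fold, with an adjusted p of 0.0136 in limma. The exact permutation test over all 6435 splits gave p = 0.000311, two-sided, where the smallest possible value is 0.000155. The difference had the same sign in both rows of the slides, 0.52 in row 1 and 0.35 in row 2, with 4 mice of each group a row, but neither row alone reached the threshold (adjusted p = 0.117 and 0.166 in limma).

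The 2 other measured Cyp2a genes were not called. Cyp2a12, a testosterone hydroxylase and the gene next to Cyp2a22 on chromosome 7, had a lowest value of 4.35, a median of 4.72 and a highest of 4.91 in miR-185-inh livers, against 4.47, 4.61 and 4.79 in ctrl-inh livers. The miR-185-inh mice spanned the whole ctrl-inh range, and the difference was 0.032 (95% interval -0.14 to 0.21, adjusted p = 0.871 in limma). Cyp2a4, a steroid hydroxylase with a near-identical paralogue in Cyp2a5, differed by 0.088 with an interval of -0.34 to 0.51. Its miR-185-inh values ran from 3.38 to 4.91 and its ctrl-inh values from 3.63 to 4.54, and its second probe gave a difference of 0.16.

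Within the subfamily, the difference of Cyp2a22 exceeded that of Cyp2a12 by 0.40, by 0.39 in row 1 and by 0.41 in row 2. It exceeded that of Cyp2a4 by 0.35, and this gap ran from 0.25 to 0.45 when 1 mouse was left out. The genes set side by side here and below were chosen after their values were seen, so these gaps are descriptions with no test.

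The sequence before the start of Cyp2a22 is shown beside that of Cyp2a12, because the genes are neighbours and the windows are close copies. Both hold the 250 bases before the start used in the RefSeq promoter table on GRCm38.p6, chr7:26939387-26939636 on the minus strand for Cyp2a22 and chr7:27028840-27029089 on the plus strand for Cyp2a12, 5′ to 3′. Of 242 aligned columns 215 were identical (88.8%), 24 were mismatched and 3 were gapped, and capitals mark the bases that differ or have no partner within the alignment.
Cyp2a22: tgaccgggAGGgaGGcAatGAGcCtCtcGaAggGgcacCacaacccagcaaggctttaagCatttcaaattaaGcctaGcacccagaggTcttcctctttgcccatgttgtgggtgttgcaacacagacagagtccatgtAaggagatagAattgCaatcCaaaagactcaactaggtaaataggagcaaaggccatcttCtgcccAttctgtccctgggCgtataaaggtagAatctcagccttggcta
Cyp2a12: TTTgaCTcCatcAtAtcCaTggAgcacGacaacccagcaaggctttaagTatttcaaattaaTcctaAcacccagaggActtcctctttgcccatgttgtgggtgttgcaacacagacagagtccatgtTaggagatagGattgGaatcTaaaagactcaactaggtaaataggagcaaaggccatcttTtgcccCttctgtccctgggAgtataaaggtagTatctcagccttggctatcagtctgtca
The start used for Cyp2a22 lies inside the span that the RefSeq gene table lists for the gene, and that for Cyp2a12 is the first base of its span. Both windows hold the TATA box letters TATAAA. The Cyp2a22 window was 52.5% identical to that of Cyp2a4.

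Cyp1a1, Cyp1a2 and Cyp1b1 oxidise polycyclic aromatic compounds and are the classical targets of the aryl hydrocarbon receptor. None of the 3 was called. Cyp1a1 had a lowest value of -1.70, a median of -1.27 and a highest of -0.99 in miR-185-inh livers, against -2.35, -1.78 and -1.12 in ctrl-inh livers. The groups overlapped, with the low tail on the ctrl-inh side, where the SD was 0.48 against 0.22 in miR-185-inh livers. Each of the 8 miR-185-inh mice exceeded the mean of the ctrl-inh mice, the difference was 0.44 (SE 0.17) or 1.35-fold, and it did not pass over all features (adjusted p = 0.156 in limma, exact permutation p = 0.0362).

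The Cyp1a1 difference was uneven over the slides. In row 1 it was 0.052, with miR-185-inh mice at -1.70 to -0.99 and ctrl-inh mice at -1.78 to -1.12. In row 2 it was 0.82, with miR-185-inh mice at -1.51 to -1.18 and ctrl-inh mice at -2.35 to -1.78, so that the groups did not overlap there. The groups also did not overlap in row 2 for Cyp2a22, Cyp2d13, Cyp2d26, Cyp2j8 and Cyp2j11. In row 1 they did not overlap for Cyp2a22, Cyp2c39, Cyp2c68, Cyp2d34, Cyp2j13, Cyp2r1 and Cyp3a41b. The share of all features separated within a row was not counted. In row 2 alone Cyp1a1 was the 1 P450 gene called (adjusted p = 0.0356 in limma, where 1.81% of features were called). The test of row against treatment did not pass (adjusted p = 0.141 in limma).

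Cyp1a2, the main family 1 enzyme of hepatocytes and the neighbour of Cyp1a1 on chromosome 9, had values of 4.07 to 4.72 in miR-185-inh livers and 4.06 to 4.63 in ctrl-inh livers. Its difference was 0.051 (95% interval -0.15 to 0.26), with 0.25 in row 1 and -0.14 in row 2. The difference of Cyp1a1 minus that of Cyp1a2 was 0.39, with -0.19 in row 1 and 0.97 in row 2. Cyp1b1, which also metabolises estrogens, was well above background in all 8 miR-185-inh and in 7 ctrl-inh mice. Its values of -4.71 to -3.35 in miR-185-inh livers and -4.83 to -3.07 in ctrl-inh livers gave a difference of 0.12 with an interval of -0.40 to 0.64.

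The Cyp1a1 window is shown because its receptor binds a known core, the letters GCGTG, given in capitals. It is the RefSeq sequence of GRCm38.p6 at chr9:57697363-57697612 on the plus strand, the 250 bases before the start used in the promoter table, which lies inside the span that the gene table lists for Cyp1a1.
Cyp1a1: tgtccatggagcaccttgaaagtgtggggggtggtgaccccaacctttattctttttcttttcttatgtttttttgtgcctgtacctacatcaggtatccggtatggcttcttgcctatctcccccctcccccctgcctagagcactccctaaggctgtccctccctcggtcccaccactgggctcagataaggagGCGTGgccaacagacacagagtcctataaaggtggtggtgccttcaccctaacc
The core occurs once in this window and was not found in the same window of Cyp1a2, which was 45.7% identical to it. Searched on both strands, GCGTG was in 7 of 43 windows of the 40 P450 genes with a window (16.3%), against 28.2% of all 32851 windows of this length. The TATA box letters TATAAA were in 20 of the 43 (46.5% against 12.4%), the nuclear receptor half-site AGGTCA in 12 (27.9% against 14.0%) and CCAAT in 17 (39.5% against 33.8%). TTATGTAA, a D-box bound by Hlf and its relatives, was in none of the 43 and in 0.819% of all windows. These are matches of letters only.

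The Cyp2d genes, a cluster on chromosome 15 in mice, mostly encode steroid and drug hydroxylases. The probe of Cyp2d13, counted among them here, matches a transcript that RefSeq lists as non-coding. Of 9 measured genes 8 were below 0 and 1 above, with a median of -0.13, and the count below 0 was 7 after normexp correction and 6 after quantile normalization, where the median was -0.024. Without miR-185-inh mouse 7 it was 5 of 9, and in slide row 1 alone also 5 of 9. None of the 9 was called. In slide row 1 their median was -0.0068 and in row 2 it was -0.22.

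Cyp2d40 lay furthest below 0 of the 48 genes. It had a lowest value of 3.62, a median of 4.0 and a highest of 4.24 in miR-185-inh livers, against 4.09, 4.20 and 4.57 in ctrl-inh livers. Each of the 8 miR-185-inh mice was under the mean of the ctrl-inh mice, though the ranges overlapped. The difference was -0.27 (SE 0.092, 0.831-fold) and did not pass over all features (adjusted p = 0.101 in limma, exact permutation p = 0.00808). In limma it passed with 3 of the other settings tried. These were normexp correction (-0.36, adjusted p = 0.0350), scaling by probes detected on all arrays (-0.29, adjusted p = 0.0384) and array weights (-0.29, adjusted p = 0.0488).

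Cyp2d34, in the same cluster as Cyp2d40 on chromosome 15 with Cyp2d13 between them, was the 1 gene of the subfamily above 0. Its values ran from 3.96 to 4.26 in miR-185-inh livers and from 3.89 to 4.20 in ctrl-inh livers, a difference of 0.12 (interval -0.018 to 0.27), and its second probe gave 0.026. The difference of Cyp2d40 minus that of Cyp2d34 was -0.39, with -0.37 in row 1 and -0.41 in row 2, for genes at the opposite ends of the subfamily. Cyp2d26 ran from 4.75 to 5.25 in miR-185-inh livers and from 5.07 to 5.54 in ctrl-inh livers (difference -0.16, adjusted p = 0.260 in limma). Cyp2d13 gave -0.15 (adjusted p = 0.264) in the same fit. Cyp2d9, a testosterone hydroxylase that is higher in male mice, differed by -0.012 with an interval of -0.19 to 0.16.

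**Figure D2:**
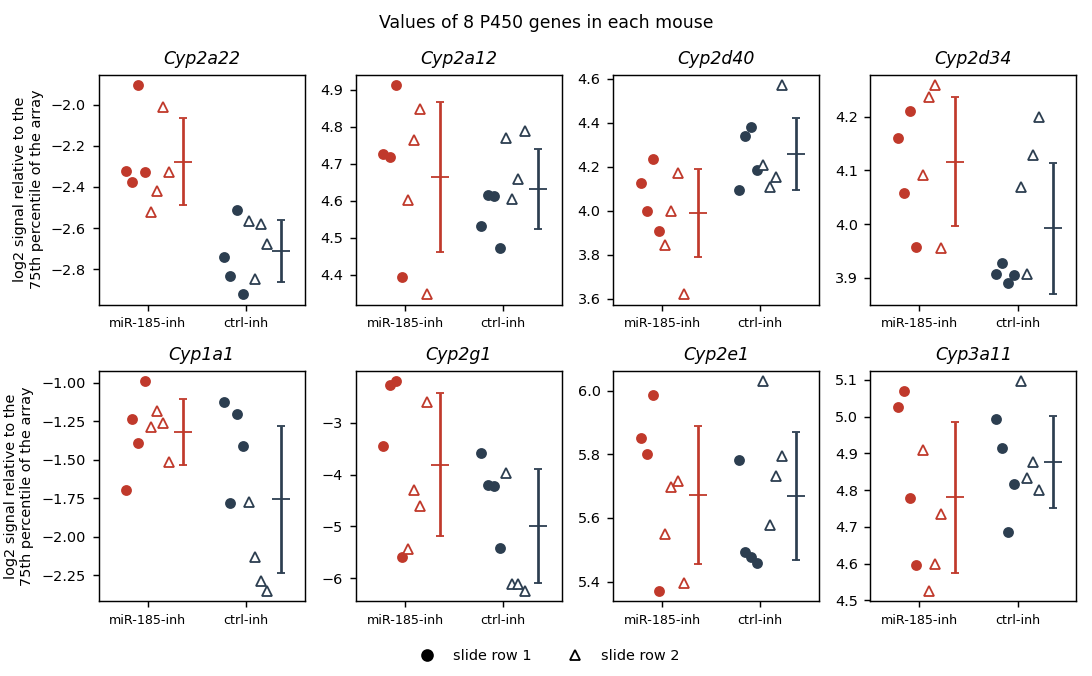
Values of Cyp2a22, Cyp2a12, Cyp2d40, Cyp2d34, Cyp1a1, Cyp2g1, Cyp2e1 and Cyp3a11 in each mouse, in log2 units relative to the 75th percentile of the array (y axes), with miR-185-inh in red and ctrl-inh in dark blue, filled circles for slide row 1, open triangles for row 2, and bars for the mean ± SD (n = 8 each). The Cyp2a22 groups meet at about -2.5, the Cyp2e1 means coincide, and the Cyp1a1 ctrl-inh mice of row 2 lie below all other mice or level with the lowest ctrl-inh mouse of row 1.

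The Cyp2c genes, which include epoxygenases of arachidonic acid and targets of CAR and PXR, were close to 0. Of 10 measured genes 8 were above 0, with differences from -0.059 to 0.14 and a median of 0.058, and after normexp correction 4 were above 0 with a median of -0.0013. None was called. Cyp2c29, a CAR target, had values of 4.71 to 5.06 in miR-185-inh livers and 4.81 to 5.27 in ctrl-inh livers, a difference of -0.059 with an interval of -0.22 to 0.10. Cyp2c55, the most variable gene of the subfamily, ran from -1.72 to -0.27 in miR-185-inh livers and from -1.46 to -0.77 in ctrl-inh livers (difference 0.14, interval -0.26 to 0.54).

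Of the 3 measured Cyp2b genes none was called. Cyp2b10, the textbook CAR target of mouse liver, was well above background in 7 mice of each group and spread widely, with values of -5.74 to -3.04 in miR-185-inh livers and -5.08 to -2.51 in ctrl-inh livers. Its difference was -0.15 with an interval of -0.95 to 0.65, too wide to exclude a 1.5-fold change in either direction. Cyp2b19, best known as an epoxygenase of the skin, had a lowest value of -0.68, a median of 0.0018 and a highest of 0.22 in miR-185-inh livers, against -0.70, -0.36 and 0.16 in ctrl-inh livers. The ctrl-inh mean was exceeded in 7 of 8 miR-185-inh mice, and the difference of 0.27 (SE 0.13) did not pass (adjusted p = 0.263 in limma, exact permutation p = 0.0737).

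Of the 8 measured Cyp3a genes 5 lay above 0, with differences from -0.13 to 0.40, and none was called; after normexp correction 4 lay above 0 and after quantile normalization 6. Cyp3a11, a PXR target that metabolises drugs, steroids and bile acids, had a lowest value of 4.53, a median of 4.76 and a highest of 5.07 in miR-185-inh livers, against 4.69, 4.86 and 5.10 in ctrl-inh livers. The groups overlapped over most of their range, and the difference was -0.097 (95% interval -0.28 to 0.085). Its second probe gave 0.016. The steroid and drug hydroxylase Cyp3a13 differed by -0.13 (interval -0.30 to 0.048), and by -0.044 with its second probe. Cyp3a25 differed by -0.0046 (interval -0.15 to 0.15).

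Cyp3a44, which is higher in female than in male mouse liver, had the largest positive difference of the Cyp3a genes. It had a lowest value of -2.28, a median of -1.61 and a highest of -1.28 in miR-185-inh livers, against -2.81, -2.04 and -1.38 in ctrl-inh livers. The groups overlapped, 6 of 8 miR-185-inh mice exceeded the ctrl-inh mean, and the difference of 0.40 (SE 0.20) did not pass (adjusted p = 0.275 in limma, exact permutation p = 0.0852). With array position on the slide in the fit the same difference was called (adjusted p = 0.0428 in limma). For Cyp3a59 the probe used gave 0.051 and a second probe 0.46 (exact permutation p = 0.0230), and which of these follows the gene was not tested.

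Among the Cyp2j genes, whose products form epoxides of arachidonic acid, 3 of 6 measured genes lay above 0 and none was called. Cyp2j11 had a lowest value of -4.34, a median of -4.05 and a highest of -3.90 in miR-185-inh livers, against -4.11, -3.86 and -3.61 in ctrl-inh livers. Each of the 8 miR-185-inh mice was under the mean of the ctrl-inh mice, within overlapping ranges, and the difference of -0.21 (SE 0.088) had an adjusted p of 0.185 in limma. The Cyp2j11 difference was -0.063 in row 1 and -0.35 in row 2. Cyp2j13 differed by 0.20 (SE 0.11, adjusted p = 0.329 in limma), with 0.41 in row 1 and 0.0028 in row 2. Cyp2j5 differed by 0.10 (interval -0.066 to 0.27). Cyp2j6 gave 0.081 with the probe used and 0.30 with a second one (exact permutation p = 0.0424).

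The subfamilies with 1 measured gene each held no call. Cyp2e1, the ethanol and acetaminophen oxidase of hepatocytes around the central vein, had a lowest value of 5.37, a median of 5.71 and a highest of 5.99 in miR-185-inh livers, against 5.46, 5.66 and 6.03 in ctrl-inh livers. The groups covered nearly the same range, and the difference was 0.0031 (95% interval -0.21 to 0.22), with a sign that changed with the scaling. For Cyp2e1 the difference was 0.20 in row 1 and -0.19 in row 2, and a second probe gave -0.073. Cyp2f2, a naphthalene oxidase of hepatocytes around the portal vein and of airway club cells, differed by -0.048 (interval -0.27 to 0.17), and by 0.043 after quantile normalization. Cyp2r1, a vitamin D hydroxylase, differed by 0.098 (interval -0.039 to 0.24) and by 0.091 with its second probe. Cyp2u1, a fatty acid hydroxylase, differed by 0.098 (interval -0.097 to 0.29) and Cyp2s1, known mainly from tissues other than liver, by -0.18 (interval -0.50 to 0.14).

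Cyp2g1, an enzyme of the olfactory mucosa, had the largest difference of the 48 genes and the widest interval. It was well above background in 6 of 8 miR-185-inh and 5 of 8 ctrl-inh mice. It had a lowest value of -5.60, a median of -3.87 and a highest of -2.20 in miR-185-inh livers, against -6.24, -4.82 and -3.59 in ctrl-inh livers. The groups overlapped over most of the ctrl-inh range, with SDs of 1.38 in miR-185-inh livers and 1.1 in ctrl-inh livers. The difference of 1.18 (SE 0.57, 95% interval -0.021 to 2.37) did not pass (adjusted p = 0.257 in limma, exact permutation p = 0.0803).

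Grouped by role, the same genes gave no further call. The 3 genes induced through the aryl hydrocarbon receptor had a median of 0.12, and all 3 were above 0. The 9 measured of 10 genes induced through CAR or PXR had a median of -0.0046, with 4 above 0 and 5 below, and 0.014 after quantile normalization. Of 11 female-biased genes 6 were measured in these male livers, 5 of them above 0 with a median of 0.082. The 7 measured of 8 arachidonic acid epoxygenases had a median of 0.076, with 4 above 0. The 5 measured of 6 genes of hepatocytes around the central vein had a median of 0.0031, which was -0.034 after normexp correction.

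The slide rows split the 48 genes. In row 1, 37 genes lay above 0 and 11 below, with a median difference of 0.12, and in row 2, 15 lay above 0 and 33 below, with a median of -0.086. Of the 48, 25 were above 0 in row 1 and below 0 in row 2. Over all features the medians were 0.0069 in row 1 and -0.070 in row 2, and 48.7% and 62.9% lay below 0. In a fit of row against treatment none of the 48 passed the adjusted threshold in limma, against 0.376% of features, and 10 had an unadjusted p under 0.05, against 14.8% of features. In row 1 alone no P450 gene and 0% of features were called.

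The arrays of ctrl-inh row 1 also stood apart in detection. In row 1, 62.5% to 67.1% of spots on miR-185-inh arrays and 68.6% to 74.8% on ctrl-inh arrays were well above background. In row 2 these ranges were 60.7% to 62.3% on miR-185-inh arrays and 58.7% to 64.2% on ctrl-inh arrays. The part of this in the row difference was not tested.

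**Figure D3:**
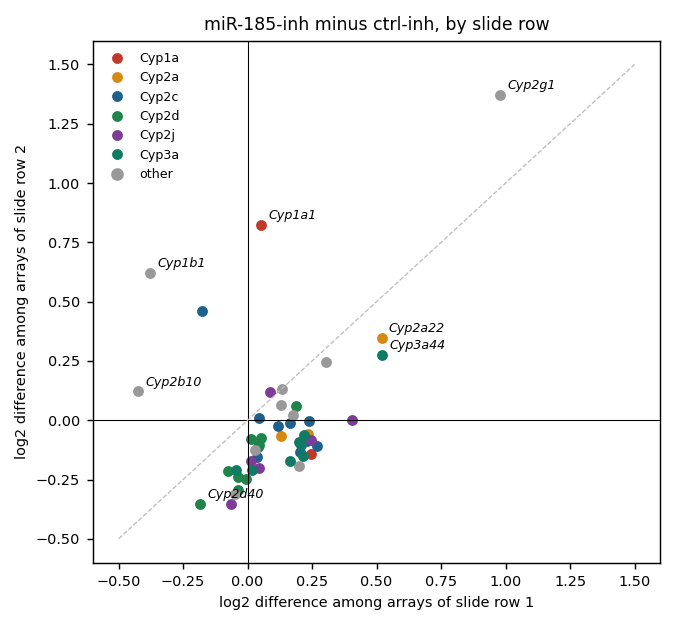
Log2 difference, miR-185-inh minus ctrl-inh, of each of the 48 genes among the arrays of slide row 1 (x axis) and of slide row 2 (y axis), coloured by subfamily, 4 mice of each group a row; the dashed line marks equal differences. Cyp2a22 lies above 0 in both rows (0.52 and 0.35), Cyp1a1 mostly in row 2 (0.82), and 25 genes lie right of 0 and below 0.

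Within each group the P450 genes tended to be high or low in the same mice. Of miR-185-inh mice, mouse 6 had the highest value of its group for 21 of the 48 genes and mouse 12 the lowest for 20. Of ctrl-inh mice, mouse 12 had the highest for 22 genes and mouse 8 for 11, while mice 3 and 4 had the lowest for 13 and 12. Among hepatocyte markers, ctrl-inh mouse 12 was highest of its group for all but Serpina1c and Ttr. There, miR-185-inh mouse 12 was lowest of its group for all but Alb, Apoa2, Serpina1c and Ttr. The array of ctrl-inh mouse 12 had the lowest median spot signal, 182. This pattern over mice was not counted over all features. Cyp2a22 was highest in miR-185-inh mice 6 and 10, and in miR-185-inh mice 7 and 12, which were low for most P450 genes, it was -2.33 in each, at the median of the group.

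**Figure D4:**
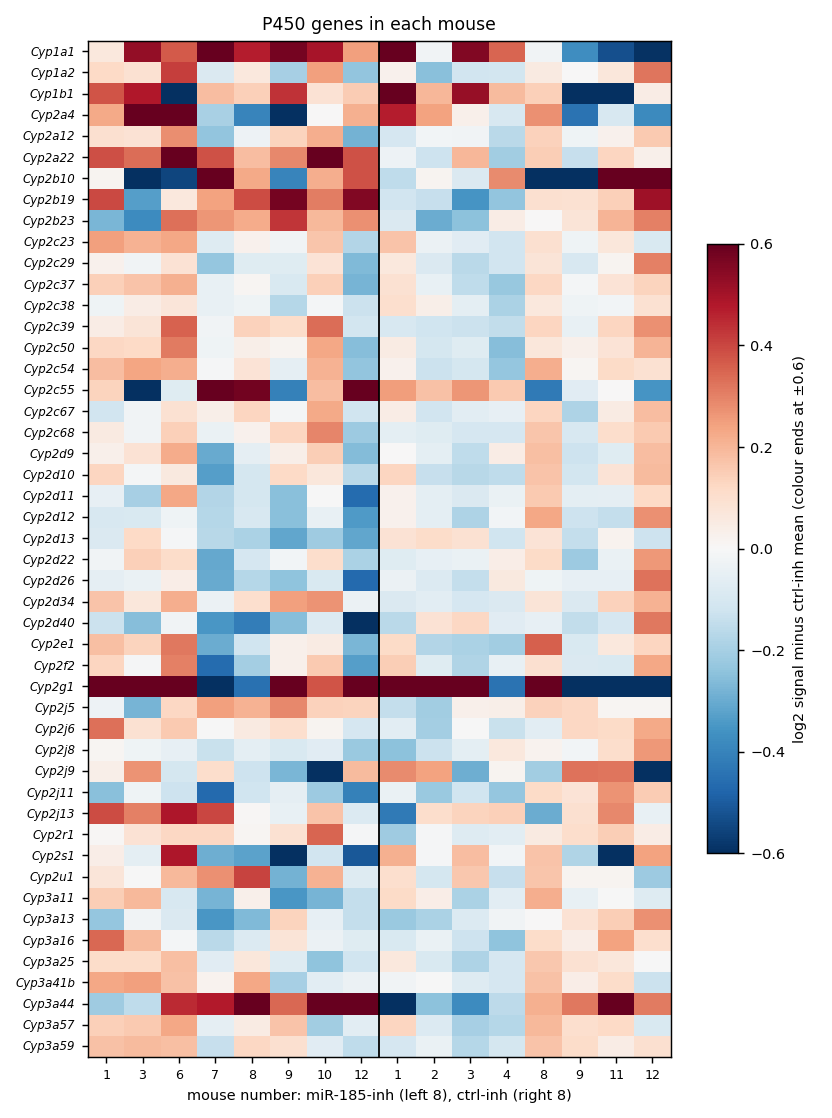
Each row is 1 of the 48 genes and each column 1 mouse (miR-185-inh left of the black line, ctrl-inh right of it, by mouse number), coloured by the log2 value minus the mean of the ctrl-inh mice, with colours ending at the limits of the scale bar. Cyp2a22 is red in all 8 miR-185-inh columns, ctrl-inh mouse 12 is red for most genes, and miR-185-inh mouse 12 is blue for most.

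Genes that serve or accompany these enzymes were read from 5 lists. The 7 electron donors and partners held no call, with a median of 0.052 and 4 above 0, or 2 after normexp correction. Cyb5b, the cytochrome b5 of the outer mitochondrial membrane, had values of 3.24 to 3.50 in miR-185-inh livers and 3.05 to 3.36 in ctrl-inh livers, a difference of 0.17 (SE 0.065, adjusted p = 0.132 in limma). It was called after normexp correction (0.29, adjusted p = 0.0115) and with array weights (0.22, adjusted p = 0.0482), both in limma. Por, the NADPH reductase of all microsomal P450 enzymes, ran from 3.19 to 4.14 in miR-185-inh livers and from 3.15 to 3.42 in ctrl-inh livers. Its difference of means was 0.19 (adjusted p = 0.464 in limma), although only 4 of 8 miR-185-inh mice exceeded the ctrl-inh mean, and it was 0.48 in row 1 and -0.10 in row 2.

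The 12 genes of heme synthesis and breakdown had a median of -0.0020, 6 on each side of 0, and no call. Of these, Hmox1 alone passed the test of row against treatment (adjusted p = 0.0482 in limma), as 0.376% of features did. Its difference was 0.15, with -0.41 in row 1 and 0.70 in row 2. The smallest p-values were those of Blvra, a biliverdin reductase (-0.11, adjusted p = 0.342 in limma), and Fech, which inserts iron into heme (-0.10, adjusted p = 0.357 in limma). Of 22 listed receptors and transcription factors 21 were measured, 16 of them above 0 with a median of 0.12, and none was called. Hlf, a circadian factor of the D-box family, had a lowest value of 0.48, a median of 0.91 and a highest of 1.66 in miR-185-inh livers, against 0.14, 0.51 and 0.67 in ctrl-inh livers. Each of the 8 miR-185-inh mice exceeded the mean of the ctrl-inh mice, and its difference of 0.52 (SE 0.16) had an adjusted p of 0.0684 in limma. In limma it passed after normexp correction (0.58, adjusted p = 0.0327), with array weights (adjusted p = 0.0412), with array position on the slide in the fit (adjusted p = 0.0473) and when miR-185-inh mouse 10 was left out (0.59, adjusted p = 0.0405). Cebpa, a hepatocyte differentiation factor, differed by 0.24 (adjusted p = 0.238 in limma), with 0.49 in row 1 and -0.015 in row 2.

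The receptors themselves stood close to 0 and were looked up for their role after the values were known. Ahr, the aryl hydrocarbon receptor, differed by 0.13 (SE 0.11), Nr1i3 (CAR) by 0.11 (SE 0.14) and Nr1i2 (PXR) by 0.064 (SE 0.078), and none passed in limma (adjusted p = 0.527, 0.734 and 0.703). Of 23 other enzymes of xenobiotic metabolism 22 were measured, with a median of 0.017, or -0.0085 when scaled by probes detected on all arrays, and no call. Nat2, an acetyltransferase, differed by 0.16 and Sult1b1, a sulfotransferase, by 0.29 (adjusted p = 0.212 and 0.227 in limma).

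Of 18 listed P450 genes of family 4, which hydroxylate fatty acids and eicosanoids at their far end, 15 were measured. Of these 15, 1 was called, Cyp4f16, which was lower in miR-185-inh livers, where 4.74% of all features were called. It had a lowest value of -1.25, a median of -1.01 and a highest of -0.89 in miR-185-inh livers, against -0.88, -0.73 and -0.38 in ctrl-inh livers. Its groups did not overlap, a separation seen for 0.861% of features. The difference was -0.34 (SE 0.083, 0.788-fold, adjusted p = 0.0260 in limma, exact permutation p = 0.000155, the smallest possible). Without ctrl-inh mouse 12 it had an adjusted p of 0.0514 and without miR-185-inh mouse 6 one of 0.0509, both in limma. Cyp4f40 was well above background in 2 miR-185-inh and 6 ctrl-inh mice, and its difference of -0.72 did not pass (adjusted p = 0.0967 in limma) and was -0.15 after normexp correction.

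The summed levels of marker lists for other cells were compared to see what moved with the P450 genes, with p-values adjusted over 10 lists. The 10 hepatocyte markers summed to 8.54 to 8.91 in miR-185-inh livers and 8.61 to 9.12 in ctrl-inh livers (difference -0.15, exact permutation p = 0.0932, adjusted 0.311). Serpina1c, 1 of these markers, had a value in 5 miR-185-inh and 7 ctrl-inh mice. The sums of the other mice lack it and are lower for that, so the p-value does not compare like sums. The part of these missing values in the difference was not tested. The 7 markers of hepatocytes around the central vein differed by 0.038 and the 7 around the portal vein by 0.0047. The 7 neutrophil markers summed to 0.76 to 3.45 in miR-185-inh livers and 1.89 to 3.72 in ctrl-inh livers (difference -0.81, exact permutation p = 0.0357, adjusted 0.234). Singly, all 7 lay below 0 with a median of -1.22, or -0.82 after normexp correction. In limma 2 were called lower, Ltf (-1.97, adjusted p = 0.0240) and Ngp (-1.22, adjusted p = 0.0427). Ltf was well above background in 3 miR-185-inh and 8 ctrl-inh mice, and Mpo in 3 and 7. Their miR-185-inh values lie largely near background, while Ngp was well above it in 8 mice of each group. The 4 detected of 6 pancreatic acinar markers summed to 2.64 to 3.24 in miR-185-inh livers and 2.61 to 3.06 in ctrl-inh livers (difference 0.21, exact permutation p = 0.0468, adjusted 0.234). Singly none was called, with Amy2a5 at 0.21, Cela2a at 0.61, Cpa1 at 0.027 and Ctrb1 at -0.89. Amy2a5 had means of 2.98 in miR-185-inh and 2.78 in ctrl-inh livers, against -2.37 and -2.98 for Cela2a, the next. The sum is therefore almost that of Amy2a5 alone. Ctrb1 was well above background in 2 miR-185-inh and 6 ctrl-inh mice, and Cpa1 in 5 and 6. Bile duct, Kupffer, endothelial and stellate lists differed by -0.11 to 0.036. Marker by marker, the median differences in rows 1 and 2 were 0.014 and -0.15 for bile duct and -0.38 and 0.086 for Kupffer. They were -0.32 and 0.35 for endothelial and -0.28 and 0.41 for stellate. Of 5 kidney tubule markers 2 were detected, and none of the 3 airway club cell markers, Scgb1a1, Scgb3a2 and Sftpb, passed the filter. The part of these lists in the values of the P450 genes was not tested.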

How the data were processed

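Each of 16 liver RNA samples was measured on its own 1-colour Agilent array, and groups were taken from the treatment label. The deposited scanner files hold an intensity per spot with background subtraction and detrending by Feature Extraction 11.5.1.1, per the file headers, while the submitters' processing notes name version 9.1. The authors' deposited value table is on a log2 scale and equalled log2 of the processed intensity minus 1 constant an array (SD of the difference up to 0.0095). Its column medians were -1.30 to -1.22, genes were not centred, direction needs no setting, and the choice of the constant was not given in the sources consulted.

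Values were log2 intensity minus the 75th percentile of the array over non-control spots. Outlier spots were left out, spots of a probe averaged, probes retained if at least 8 of 16 arrays had them well above background, and a gene represented by its brightest probe. Accessions named 26762 of 55681 probes through RefSeq (GRCm38.p6), used for names and neighbours, since the array grid is on mm9. Neighbours were read among protein-coding genes. The treatment effect was fitted by limma 3.58.1 (R 4.3.3) and Benjamini-Hochberg adjusted p-values were taken over all 25794 features. Single values were compared by two-sided exact permutation tests. The fit was tested on simulated data.

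The text names 14 fixed members, every call, the 6 largest positive and 6 largest negative differences, and in each pathway list the calls and the 2 smallest p-values; other genes were named after their values were seen. Members and lists were chosen with earlier results of these data known. One gene of the families is not reported here. Normexp (offset 50), quantile scaling, other percentiles and filters, the value table, probe means, other moderation, array weights, slide covariates, single rows, left-out mice and a replicate block were tried.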

Additional observations from a re-analysis of the deposited data

Results flagged for a closer look

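In 3 of 96 groups of 8 mice (48 genes, each group tested), 1 mouse stood apart from the rest of its group by Dixon's gap over range, a test that chance alone passes in about 1 of 20 groups. Cyp1b1 was at -4.71 in miR-185-inh mouse 6, and the rest of its group ran from -3.74 to -3.35. Cyp2r1 was at 2.85 in miR-185-inh mouse 10, against 2.50 to 2.63 in the others of its group. Cyp2d26 was at 5.54 in ctrl-inh mouse 12, against 5.07 to 5.27 in the other ctrl-inh mice.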

How the results depend on the processing

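Cyp2a22 was called, and higher, in all 10 alternatives that kept the 16 mice and in all 16 that left out 1 mouse (differences of 0.38 to 0.47). It was not called in row 1 alone (0.52), row 2 alone (0.35), the replicate block over shared mouse numbers (0.28, adjusted p = 0.441 in limma) or the same mice without the block (0.28, adjusted p = 0.295 in limma). Mouse numbers shared by the groups did not pair the samples: same-numbered mice correlated at -0.128 to 0.107 over 5 numbers, and none was best matched with its own number. Cyp4f16 was likewise not called in those 4 settings (adjusted p = 0.126, 0.155, 0.335 and 0.334 in limma, in that order). P450 genes called numbered 2 with normexp, the detected percentile and array weights (adding Cyp2d40) and 2 with slide covariates (adding Cyp3a44). In these 4 settings 1149, 1820, 1706 and 1436 of 25794 features were called. P450 genes called numbered 1 in row 2, and 0 in row 1, in the replicate block and without it. The unadjusted counts in those last 3 were 9, 5 and 4 of 48. Over all features they were 4614, 2601 and 2879 of 25794 (25791 in the block). All features called numbered 0 in row 1, in the block and in the same mice without it, 466 in row 2, and 742 to 1586 with 1 mouse left out, where leaving out ctrl-inh mouse 12 (789), miR-185-inh mouse 6 (787) or mouse 7 (742) moved the count most. The median of the P450 genes was -0.086 in row 2.

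Signs turned for the following differences, none of them called, and the cause was not tested. With normexp, Cyp2e1 was -0.034 and Cyp3a13 0.014. With quantile scaling, Cyp2d9 was 0.039, Cyp2f2 0.043 and Cyp3a25 0.014. Cyp2e1 was -0.022 with the detected percentile and -0.035 with probe means, and Cyp3a25 was 0.047 with array weights. In row 1, Cyp1b1 was -0.38, Cyp2c29 0.038, Cyp2d9 0.050, Cyp2f2 0.027, Cyp3a11 0.015, Cyp3a25 0.16 and the gap of Cyp1a1 over Cyp1a2 -0.19. In row 2, Cyp1a2 was -0.14, Cyp2b10 0.12, Cyp2e1 -0.19, Por -0.10 and Cebpa -0.015. In the replicate block and in the same mice without it, Cyp1a2 was -0.091, Cyp2e1 -0.073 and Cyp2u1 -0.024. Leaving out 1 mouse gave -0.0014 to 0.097 for Cyp1a2, -0.021 to 0.27 for Cyp1b1, -0.33 to 0.099 for Cyp2b10, -0.046 to 0.030 for Cyp2d9, -0.042 to 0.055 for Cyp2e1, -0.099 to 0.011 for Cyp2f2 and -0.031 to 0.029 for Cyp3a25. Dim genes (Cyp2g1, Cyp1b1, Cyp2b10) are limited by signal near background.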
